A study of Mus musculus with 12 samples.

Results

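Promoters of stand-alone long noncoding RNA (lncRNA) genes were examined for binding of the transcription factor YY1 in blood progenitors. A stand-alone lncRNA gene was defined as an autosomal GENCODE gene of a long noncoding type (lincRNA, antisense, sense intronic, sense overlapping, processed transcript or bidirectional promoter lncRNA) whose 5′ end lay more than 5 kb from the start of every protein-coding transcript. Of 9421 autosomal lncRNA genes, 6786 met this rule, and the window 1 kb either side of each 5′ end was searched for YY1 peaks. They comprised 4557 lincRNA genes, 1584 antisense genes, 378 processed transcripts, 243 sense intronic genes, 23 sense overlapping genes and 1 bidirectional promoter lncRNA. The other 2635 lncRNA genes, which lay within 5 kb of a coding start, and 20807 protein-coding genes served for comparison, and 51229 gene 5′ ends of all types on the autosomes gave the background.

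YY1 was profiled by ChIP-seq with an anti-YY1 antibody in Lin− bone marrow cells, the stem and progenitor fraction left after removal of mature blood lineages, from 3-month-old female mice of the strain 129Sv4/Jae x B6. The series holds 12 samples, of which the 4 YY1 libraries were used: 2 from wild-type mice (WT) and 2 from mice homozygous for a blood-specific deletion of Xist (XistΔ/Δ). The deletion came from a floxed Xist allele and Vav-iCre, a Cre recombinase under control sequences of the blood gene Vav1, so cells outside the blood lineage keep Xist, and the labels do not say whether WT mice carried Cre. At the start of Xist itself a peak of 3083 and 3222 bp was present in the WT replicates 1 and 2 and no peak in either XistΔ/Δ library, in keeping with their labels. A peak in at least 2 libraries was present at 5 of 8 stem and progenitor genes (Kit, Myb, Ptprc, Runx1 and Spi1), but not at Cd34, Flt3 or Gata2. Such a peak was present at 1 of 6 genes of the depleted lineages (Itgam) and at 0 of 6 genes of other tissues. Over all protein-coding genes the share was 43.8%, and whether these small counts differ from it was not tested. The replicate 1 libraries held 24.9 (WT) and 23.1 (XistΔ/Δ) M tags and the replicate 2 libraries 50.0 and 59.5 M. The lists held 9553 and 15933 peaks (WT) and 10075 and 18113 peaks (XistΔ/Δ), and depth and replicate number cannot be told apart.

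YY1 is a zinc-finger protein that binds near transcription starts and at enhancers, can activate or repress, and can hold promoters and enhancers together in loops. Its motif, with the letters AANATGGC on either strand, is common just downstream of the starts of CpG-rich, broadly used promoters. lncRNA genes are transcribed by RNA polymerase II like coding genes, but many use promoters poor in CpG, are expressed at low levels and in few cell types. Some serve as hosts whose introns are processed into small nucleolar RNAs (snoRNAs, which guide modification of ribosomal RNA) or into microRNAs, while others such as Malat1 and Neat1 act as long RNAs in the nucleus.

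Among the members with a peak in all 4 libraries, those with a match to AANATGGC inside the 300 bases from 250 before the 5′ end are shown here for the 5 with the widest peaks, since these promoters carry both the peak and the letters. The sequences are from the genome build GRCm38, run in the direction of the gene, and have the match, in either orientation, in capitals.

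1810026B05Rik, chr7:73558346-73558645 (minus strand): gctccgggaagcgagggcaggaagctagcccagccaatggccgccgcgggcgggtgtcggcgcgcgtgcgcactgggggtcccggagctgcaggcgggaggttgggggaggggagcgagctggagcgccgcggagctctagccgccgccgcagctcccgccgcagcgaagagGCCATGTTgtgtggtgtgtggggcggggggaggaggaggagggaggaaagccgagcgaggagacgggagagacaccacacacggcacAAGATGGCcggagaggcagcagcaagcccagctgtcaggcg
E130102H24Rik, chr4:101356686-101356985 (minus strand): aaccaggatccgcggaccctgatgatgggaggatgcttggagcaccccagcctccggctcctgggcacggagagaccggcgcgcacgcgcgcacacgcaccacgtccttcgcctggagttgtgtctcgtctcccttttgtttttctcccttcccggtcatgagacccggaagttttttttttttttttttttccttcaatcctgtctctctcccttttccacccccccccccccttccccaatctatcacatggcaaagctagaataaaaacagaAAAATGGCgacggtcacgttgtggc
Gm27017, chr14:61648700-61648999 (plus strand): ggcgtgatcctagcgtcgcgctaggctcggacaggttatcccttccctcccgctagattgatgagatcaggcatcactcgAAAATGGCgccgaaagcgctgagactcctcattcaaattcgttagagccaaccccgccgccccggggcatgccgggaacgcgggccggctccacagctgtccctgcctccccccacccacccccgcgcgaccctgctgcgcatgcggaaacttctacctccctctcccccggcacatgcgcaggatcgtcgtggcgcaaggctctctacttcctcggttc
C230035I16Rik, chr13:23430973-23431272 (minus strand): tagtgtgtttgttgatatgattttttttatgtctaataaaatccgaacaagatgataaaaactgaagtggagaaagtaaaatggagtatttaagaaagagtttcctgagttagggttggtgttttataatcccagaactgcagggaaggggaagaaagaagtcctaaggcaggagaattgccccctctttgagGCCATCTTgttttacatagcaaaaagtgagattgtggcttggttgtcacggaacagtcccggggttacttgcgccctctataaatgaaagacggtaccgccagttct
Gm38293, chr1:180768607-180768906 (minus strand): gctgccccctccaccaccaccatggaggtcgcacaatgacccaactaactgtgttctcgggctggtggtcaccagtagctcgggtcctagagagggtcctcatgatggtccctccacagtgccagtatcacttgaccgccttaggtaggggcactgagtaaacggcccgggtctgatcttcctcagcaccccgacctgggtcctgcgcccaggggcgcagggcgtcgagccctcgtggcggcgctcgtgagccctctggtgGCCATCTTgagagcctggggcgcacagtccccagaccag

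1810026B05Rik (ENSMUSG00000101970.6), the mouse Chaserr gene, a lncRNA upstream of the chromatin remodeller gene Chd2, had 2 matches, starting at positions -78 and 9, counted along the gene with the 5′ end as 0. Its peak measured 4158 bp in WT replicate 1, 5463 bp in WT replicate 2, 3660 bp in XistΔ/Δ replicate 1 and 5317 bp in XistΔ/Δ replicate 2. These widths ranked it among the widest peaks of every library, with a mean width percentile of 99.8 (the percentile of its peak among all peaks of a library, averaged over 4 libraries). Peaks at E130102H24Rik measured 2268 and 2402 bp in the WT libraries and 1350 and 2475 bp in the XistΔ/Δ libraries, and those at Gm27017 measured 1600 and 2489 bp in the WT libraries and 1525 and 3086 bp in the XistΔ/Δ libraries. Both promoters were CpG-rich, defined as a GC content of at least 50% and a CpG observed/expected ratio of at least 0.6 over the 300 bases. The promoters of C230035I16Rik and Gm38293 were not, with CpG ratios of 0.519 and 0.512. In all 5 genes the deeper replicate 2 libraries gave the wider peak within each genotype.

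At 8 listed genes with a peak in all 4 libraries the nearest match lay outside the 300 bases or across their edge. The 60 bases around it are given for 4 of them, picked as examples after the values were seen, with the same conventions.

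Malat1, chr19:5803263-5803322 (minus strand): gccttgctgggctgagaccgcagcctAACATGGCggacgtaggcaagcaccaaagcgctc
Mir17hg, chr14:115041883-115041942 (plus strand): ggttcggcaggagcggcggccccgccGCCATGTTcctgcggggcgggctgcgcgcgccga
Snhg12, chr4:132309198-132309257 (plus strand): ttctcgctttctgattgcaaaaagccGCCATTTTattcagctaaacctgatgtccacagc
1700020I14Rik, chr2:119594314-119594373 (plus strand): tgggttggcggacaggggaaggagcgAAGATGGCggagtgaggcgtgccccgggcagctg

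A peak covered each of these 4 matches in all 4 libraries, as it did at Snhg15 and Neat1, while the matches at Peg13 and Lockd were covered in 3 and 2 libraries. Counted in the same way, the match began at position -624 at Malat1, -970 at Mir17hg, 601 at Snhg12 and 43 at 1700020I14Rik. A match in the letters is a description and was not tested as a site.

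Few stand-alone lncRNA promoters held a YY1 peak. In WT replicate 1, 173 of 6786 windows had a peak (2.55%), in WT replicate 2 317 (4.67%), in XistΔ/Δ replicate 1 188 (2.77%) and in XistΔ/Δ replicate 2 377 (5.56%). The 95% Wilson intervals, which cover counting error only, were 2.20 to 2.95% for the lowest share and 5.04 to 6.13% for the highest. Both replicate 2 libraries lay above both replicate 1 libraries, and XistΔ/Δ lay above WT within each replicate number. Over the same libraries, 36.7 to 45.4% of protein-coding windows and 34.4 to 44.0% of windows of lncRNA genes near a coding start held a peak. The mean share of members was 37.0 percentage points below that of protein-coding genes (SD of the difference 3.17, n = 4 libraries) and 35.3 points below that of lncRNA genes near a coding start (SD 3.48). Each difference was negative in 4 of 4 libraries, with a two-sided exact sign-flip permutation p of 0.125, the smallest that 4 libraries allow. The gap was therefore larger than the spread between libraries in every library while the design could not reach 0.05.

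**Figure D1:**
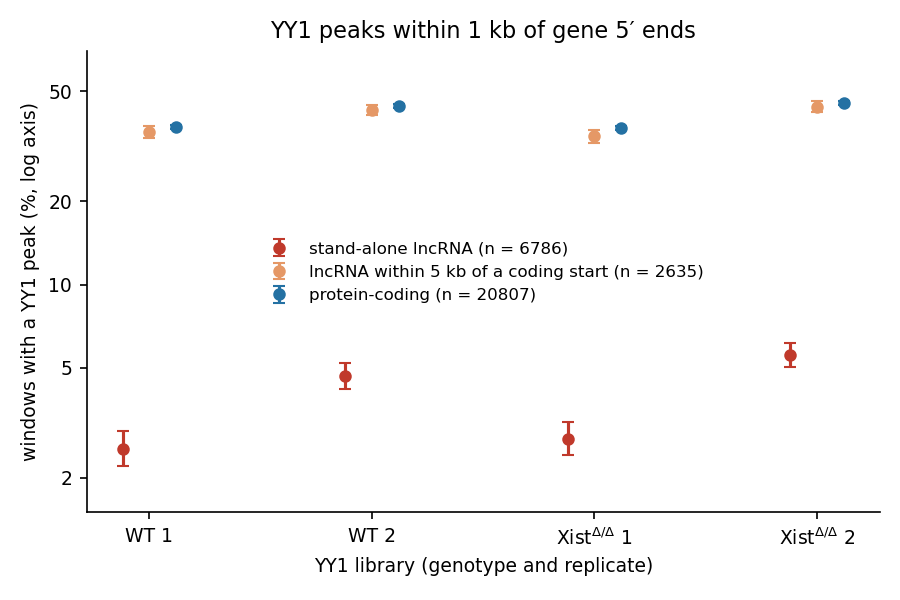
Share of windows with a YY1 peak within 1 kb of the gene 5′ end, in percent on a log axis, in each of the 4 libraries; points are the shares and bars their 95% Wilson intervals. Stand-alone lncRNA windows lie between 2.55 and 5.56%, below the 34.4 to 45.4% of the other classes in every library.

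Counted over libraries, 414 members had a peak in at least 1 library, 294 (4.33%) in at least 2 and 149 (2.20%) in all 4. Over all autosomal gene 5′ ends, 22.2% had a peak in at least 2 libraries and 16.6% in all 4. Of the members with any peak, 36.0% had it in all 4 libraries, against 71.7% of protein-coding windows and 69.9% of lncRNA windows near a coding start. Of the 120 members with a peak in a single library, 85 had it in XistΔ/Δ replicate 2 and 31 in WT replicate 2, the deepest libraries, 3 in XistΔ/Δ replicate 1 and 1 in WT replicate 1. A further 86 members had a peak in both replicate 2 libraries and neither replicate 1 library, 1.27% of members against 2.20% of all gene 5′ ends. Among windows with a peak in any library the order was the reverse, 20.8% of members against 9.14% of all gene 5′ ends. Within WT, 170 of the 317 members with a peak in replicate 2 also had it in replicate 1 (53.6%, Wilson interval 48.1 to 59.0%), against 82.8% of protein-coding windows. Within XistΔ/Δ the shares were 48.8% (43.8 to 53.8%) and 80.6%.

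**Figure D2:**
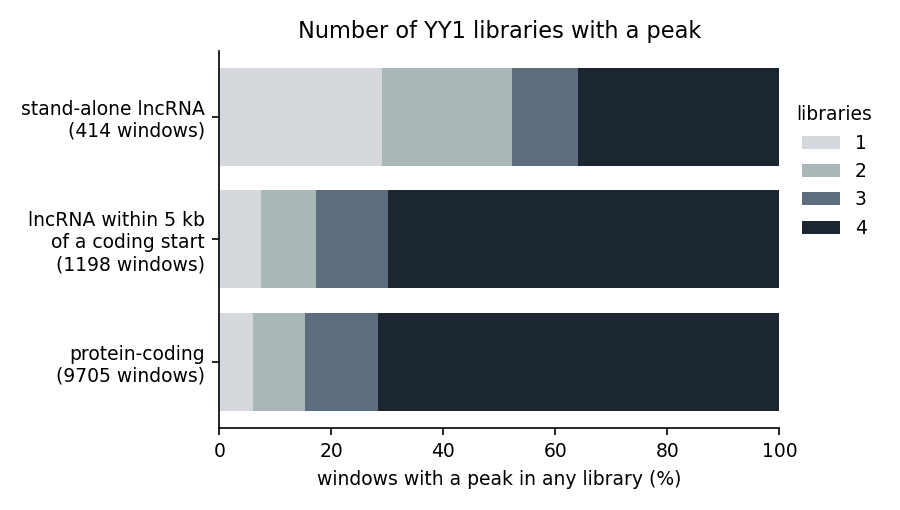
Windows with a YY1 peak in any library, split by the number of libraries (1 to 4) with a peak, in percent of those windows for each gene class. The darkest part, a peak in all 4 libraries, is 36.0% for stand-alone lncRNA genes and 71.7% for protein-coding genes.

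The peaks at members were also narrower. The median width was 784 and 887 bp in WT replicates 1 and 2 and 760 and 808 bp in XistΔ/Δ, against 1000 and 1290 bp and 895 and 1280 bp at protein-coding genes. The members' median width percentile was between 42.4 and 45.9, which was 19.9 points below that of protein-coding genes on average and lower in 4 of 4 libraries (exact sign-flip permutation p = 0.125, the smallest possible). Between 19.5 and 28.2% of the members' peaks had the width of 501 bp, the most frequent one in each library. The lists give no tag count per peak, so width was the measure of size used here. The 5′ end itself lay inside the peak in 68.1 to 73.4% of the members with a peak. Among genes with a peak, the share was 87.7 to 92.6% for protein-coding genes and 73.6 to 81.6% for lncRNA genes near a coding start. Members were again lower than each class in 4 of 4 libraries (exact sign-flip permutation p = 0.125 for each). In XistΔ/Δ replicate 1 members and lncRNA genes near a coding start were almost level, with 73.4 and 73.6%. The median offset of the peak centre from the members' 5′ end was between 8.50 and 61.5 bp downstream.

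Although few members were bound, their windows held more peaks per Mb than all other sequence over 5 kb from a coding start in 4 of 4 libraries. The flanks of the windows were not compared on their own. Outside 5 kb of any coding start, members' windows covered 13.2 of 2140 Mb (0.619% of known bases). In WT replicate 1, 145 of 1315 peaks with their centre in this territory fell in a member's window (11.0%, Wilson interval 9.45 to 12.8%), and in XistΔ/Δ replicate 1 163 of 1790 (9.11%). In the replicate 2 libraries the shares were 5.46% (265 of 4851, WT) and 5.05% (316 of 6259, XistΔ/Δ). Per Mb this was 11.0 peaks in the windows and 0.550 elsewhere in WT replicate 1, a ratio of 19.9, and 23.9 and 2.79 in XistΔ/Δ replicate 2, a ratio of 8.54. The ratio in WT replicate 2 was 9.28 and in XistΔ/Δ replicate 1 16.1. It was lower in both deeper libraries.

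The share of bound members fell with distance from a coding start. A peak in at least 2 libraries was found at 7.04% of members 5 to 10 kb from a coding start (45 of 639), 6.51% at 10 to 25 kb (86 of 1322), 5.74% at 25 to 50 kb (74 of 1290), 4.11% at 50 to 100 kb (51 of 1242), 2.61% at 100 to 200 kb (27 of 1034) and 0.874% beyond 200 kb (11 of 1259). The Wilson intervals of neighbouring bins overlapped up to 200 kb, while those of the nearest bin (5.30 to 9.29%) and the farthest (0.489 to 1.56%) did not. CpG-rich promoters became rarer over the same bins, from 6.89% to 2.78% of members. Among members that were not CpG-rich, the share with a peak still ran from 5.38% in the nearest bin to 0.654% in the farthest. Among CpG-rich members it did not fall from the nearest bin on: the shares were 29.5%, 44.4%, 43.4%, 34.0%, 18.8% and 8.57% from the nearest to the farthest, over 32 to 72 members per bin with wide intervals.

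**Figure D3:**
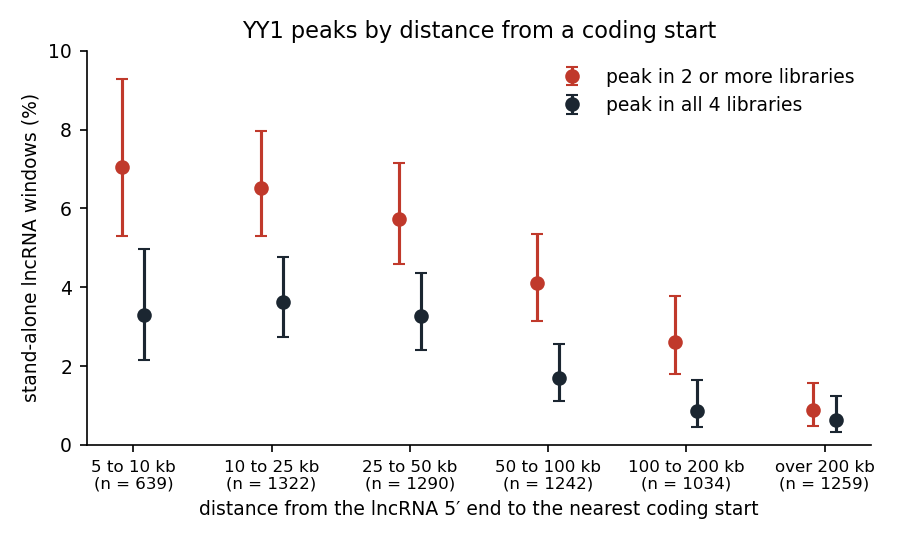
Share of stand-alone lncRNA windows with a YY1 peak, in percent, by distance of the 5′ end from the nearest coding start, for a peak in at least 2 libraries and in all 4; bars are 95% Wilson intervals. The share for at least 2 libraries goes from 7.04% in the nearest bin to 0.874% beyond 200 kb.

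The members with a peak in at least 2 libraries just past it were Gm15471 (5.05 kb, 4 libraries), E230001N04Rik (5.20 kb, 4 libraries) and Snhg12 (5.24 kb, 4 libraries). The lncRNA genes with such a peak just within it were Gm15729 (4.99 kb, 2 libraries), AA465934 (4.97 kb, 4 libraries) and Mir142hg (4.96 kb, 4 libraries), the host gene of the blood microRNA miR-142. At the other end, the members with a peak in all 4 libraries farthest from a coding start were Gm26901 on chromosome 1 (309 kb), Gm45029 on chromosome 16 (307 kb) and Gm4258 on chromosome 1 (277 kb). The peak of Gm4258 measured 1409 and 3287 bp in the WT libraries and 1206 and 2138 bp in the XistΔ/Δ libraries. That of Gm45029 measured 1029 and 1188 bp in the WT libraries and 501 and 1112 bp in the XistΔ/Δ libraries.

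Bound members were more often CpG-rich. Only 286 members (4.21%) had a CpG-rich promoter, against 42.5% of protein-coding genes and 41.6% of lncRNA genes near a coding start. Of those 286, 94 had a peak in at least 2 libraries (32.9%, Wilson interval 27.7 to 38.5%), and of the 6500 others 200 (3.08%, 2.68 to 3.53%). Among the 149 members with a peak in all 4 libraries, 71 (47.7%) were CpG-rich. At like CpG content members were still bound less often: 75.6% of CpG-rich and 20.4% of other protein-coding promoters had a peak in at least 2 libraries, and 69.1% and 22.8% of lncRNA promoters near a coding start. Within the CpG-rich class the mean share per library was 31.0% for members and 71.2% for protein-coding genes, a difference of 40.1 points that had the same sign in 4 of 4 libraries (exact sign-flip permutation p = 0.125). Within the class that was not CpG-rich the shares were 2.69% and 18.5%. At a CpG observed/expected ratio over 0.8, 61 of 159 members (38.4%) had a peak in at least 2 libraries, compared with 81.9% of protein-coding genes.

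**Figure D4:**
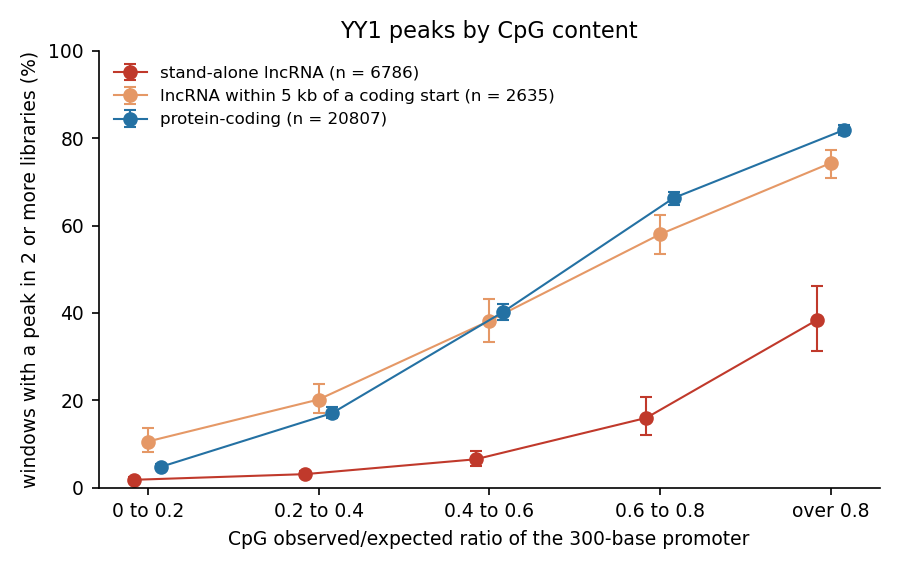
Share of windows with a YY1 peak in at least 2 libraries, in percent, by the CpG observed/expected ratio of the 300-base promoter, for the 3 gene classes; bars are 95% Wilson intervals. All classes rise with the ratio, and stand-alone lncRNA genes stay below the others in every bin, with 38.4% in the highest.

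Matches to AANATGGC were spread widely. In the 300-base promoter 9.40% of the members with a peak in all 4 libraries (14 of 149) and 4.76% of those with no peak (303 of 6372) had a match, against 6.91% of the promoters of all autosomal genes. Among protein-coding promoters the shares were 12.6% and 3.17%. Over the whole 2001-base window the share was 36.2% for members with a peak in all 4 libraries and 31.6% for members with none, and 32.7% for all autosomal genes. Most bound members thus had no match in the 300 bases, which says only that these letters are not there.

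Binding also varied with the annotation class and the grade of evidence for a transcript. Of the processed transcripts, a GENCODE class for transcripts without an open reading frame that are placed in no narrower class, 12.4% had a peak in at least 2 libraries (47 of 378), against 4.24% of lincRNA, 3.22% of antisense and 1.23% of sense intronic genes. Of processed transcripts 12.2% were CpG-rich, against 3.88% of lincRNA genes. No peak in at least 2 libraries was found among the 23 sense overlapping genes, where a count of 0 leaves a Wilson upper limit of 14.3%. Members with a transcript of support level 1, the best grade of evidence, were bound in 5.69% of cases members of levels 2 and 3 in 5.72% and 3.64%, and members of level 5, the weakest, in 1.58%. The 1621 members without a level did not follow this order, with 4.13%. The 5′ ends of 1783 members lay inside a protein-coding gene, and 2.80% of these had a peak, against 4.88% of the 5003 outside.

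Across chromosomes the share of members with a peak in at least 2 libraries ran from 2.07% on chromosome 3 (8 of 386) to 9.28% on chromosome 17 (27 of 291, Wilson interval 6.46 to 13.2%). The 27 on chromosome 17 lay in 24 groups of windows that do not overlap. Over all gene 5′ ends the shares on chromosomes 3 and 17 were 19.4% and 26.1%.

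The widest peaks at members lay over a few unusual loci. The first was Gm11399, an antisense gene on chromosome 11, where a peak of 17432 and 18381 bp in the WT libraries and 12838 and 19827 bp in the XistΔ/Δ libraries ran far past the gene. The second, BC018473, an antisense gene on chromosome 11, lay under a peak of 9408 and 9301 bp in the WT libraries and 7695 and 9394 bp in the XistΔ/Δ libraries, the region chr11:116749888-116759374 that spans the gene. The third was shared by Gm42418, AY036118 and Gm26917 on chromosome 17, under a single peak of 6113 to 6266 bp that also covers a RefSeq 18S ribosomal RNA related sequence. No input library was used in the calls, and copy number at these loci was not tested.

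The remaining loci among the 10 widest were Gm48265, 1810026B05Rik, Malat1, Gm44734, Neat1, Lockd and 1700012D14Rik. Malat1 (ENSMUSG00000092341.3), a long nuclear RNA of speckles, had peaks of 4326 and 6681 bp in the WT libraries and 3001 and 7359 bp in the XistΔ/Δ libraries. Merged over the 4 lists, the region chr19:5797856-5805283 covered its 5′ end and most of the gene. Neat1, which builds the paraspeckles, had 2518 and 7106 bp in the WT libraries and 3074 and 6167 bp in the XistΔ/Δ libraries, a peak shared with the antisense gene Frmd8os. Lockd, a lncRNA downstream of the cell cycle inhibitor gene Cdkn1b, had 2535 and 4521 bp in the WT libraries and 2303 and 3939 bp in the XistΔ/Δ libraries. Gm44734, a lincRNA gene on chromosome 7 that lies 67.2 kb from a coding start, had 3959 and 4855 bp in the WT libraries and 3439 and 4379 bp in the XistΔ/Δ libraries. At Malat1, Neat1 and Lockd the replicate 2 libraries gave wider peaks than the replicate 1 libraries, with both genotypes overlapping.

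Of 92 listed well-known lncRNA genes, 77 were in the annotation, 52 were members, 23 were lncRNA genes within 5 kb of a coding start and 2 were of other gene types. The lists were written from general knowledge of lncRNA genes with earlier results of these data known, so their counts are descriptions. Of the 52 members, 23 had a peak in at least 2 libraries, 18 in all 4, 2 in 1 library and 27 in none. A peak in at least 2 libraries was present at 4.33% of all members and 22.2% of all autosomal gene 5′ ends, the shares that stand beside the count of each list below. At 24 of the 25 with a peak the merged region of the 4 lists overlapped an exon of the gene, and at Lncpint it lay in the flank.

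Most listed hosts of snoRNAs were bound. Of 9 listed hosts that were members, 8 had a peak in all 4 libraries: Snhg5, Snhg6, Snhg8, Snhg12, Snhg15, Snhg17, Snhg20 and Epb41l4aos. Such a peak was present at 2.20% of all members and 16.6% of all autosomal gene 5′ ends. Peaks at Snhg8 measured 1607 and 2329 bp in the WT libraries and 1178 and 1810 bp in the XistΔ/Δ libraries, and at Snhg15 1674 and 2025 bp in the WT libraries and 1526 and 1817 bp in the XistΔ/Δ libraries. Narrower peaks lay at Snhg17, of 501 and 763 bp in WT, and at Snhg20, of 635 and 912 bp. The merged region of the 4 lists at Snhg20 began 0.399 kb downstream of the 5′ end, whereas those at the other 7 covered it. The exception was Snhg14, the long transcript of the imprinted Prader-Willi region, with no peak in any library, none at its 14 other annotated starts and the nearest region called in at least 2 libraries 745 kb away. Binding was not particular to the stand-alone hosts. Of the 8 listed hosts within 5 kb of a coding start, Gas5, Zfas1, Snhg1, Snhg3, Snhg9 and Snhg10 also had a peak in all 4 libraries, while Rian and Snhg18 had none.

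Hosts of microRNAs divided. Mir17hg, host of the miR-17-92 cluster that promotes growth of blood cells, had peaks of 2465 and 3136 bp in the WT libraries and 2509 and 2440 bp in the XistΔ/Δ libraries. Mir22hg, host of miR-22, had 2611 and 2207 bp in the WT libraries and 1436 and 2414 bp in the XistΔ/Δ libraries. Dleu2, host of the miR-15a and miR-16 tumour suppressors, had 1857 and 3886 bp in the WT libraries and 795 and 3585 bp in the XistΔ/Δ libraries, and 4 of its 6 other starts also held a peak in at least 2 libraries. Mirt1, which was placed on this list but is not known as a microRNA host, had a peak in the XistΔ/Δ libraries alone. Lncpint, a p53-induced gene, had a peak in XistΔ/Δ replicate 2 only, in the flank of the gene at the outer edge of its window. Of its 12 other starts, 6 held a peak in at least 2 libraries. The other 8 members of the list had none at the 5′ end: Mir99ahg, Mir155hg, the neural hosts Mir124a-1hg, Mir124-2hg and Mir9-3hg, Mir670hg, Dnm3os and Mirg. Mir155hg, host of an immune microRNA, was CpG-rich and lay 31.3 kb from the nearest region called in at least 2 libraries. A peak in at least 2 libraries lay at 6 of the 14 other starts of Mir99ahg and at 1 of the 2 other starts of Mir670hg.

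Among 9 imprinted lncRNA genes, Peg13 had a peak in all 4 libraries and Kcnq1ot1 in 3. Peg13, a paternally expressed RNA that lies in an intron of Trappc9, had 1284 and 1486 bp in the WT libraries and 1411 and 1567 bp in the XistΔ/Δ libraries. Kcnq1ot1, which silences its imprinted domain on the paternal chromosome, had no peak in WT replicate 1, 1421 bp in WT replicate 2 and 907 and 1217 bp in XistΔ/Δ. The other 7 had none: H19, Meg3, Mirg, Airn, Snhg14, Nctc1 and A230057D06Rik. The nearest region called in at least 2 libraries lay 44.3 kb from H19, 473 kb from Meg3 and 173 kb from Airn.

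Of 16 members studied in blood, immune or stem cells, 6 had a peak in at least 2 libraries. Neat1, Malat1, Lockd, Mir17hg and Dleu2 had it in all 4, and Trp53cor1, the p53 target also named lincRNA-p21, had none in WT replicate 1, 1213 bp in WT replicate 2 and 501 and 633 bp in XistΔ/Δ. Ptgs2os2 had a peak of 842 bp in XistΔ/Δ replicate 2 alone. Pvt1, the neighbour of Myc, had no peak at its CpG-rich 5′ end or its 5 other starts, and the nearest region called in at least 2 libraries lay 50.2 kb away. Gm14005, also named Morrbid, which controls survival of short-lived myeloid cells, had none at its 5′ end but one at each of its 9 other annotated starts, the nearest region 56.9 kb from the 5′ end. Lncenc1, Platr3, Platr22 and Halr1, described in embryonic stem cells, had none.

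Of 12 other widely studied members, 1810026B05Rik, Dancr and 1700020I14Rik had a peak in all 4 libraries. Dancr, which also carries a snoRNA, had 501 and 811 bp in the WT libraries and 756 and 932 bp in the XistΔ/Δ libraries. The peak of 2900097C17Rik, the mouse Norad gene that binds Pumilio proteins, was 501 bp wide in both WT libraries and in XistΔ/Δ replicate 2, and absent from XistΔ/Δ replicate 1. Dubr had 743 and 501 bp in the replicate 2 libraries of WT and XistΔ/Δ and none in the replicate 1 libraries. No peak was found at Miat, Sox2ot, Rmst, Dlx6os1, Paupar, Bvht and Hotair, most of them known from neural or cardiac development.

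**Figure D5:**
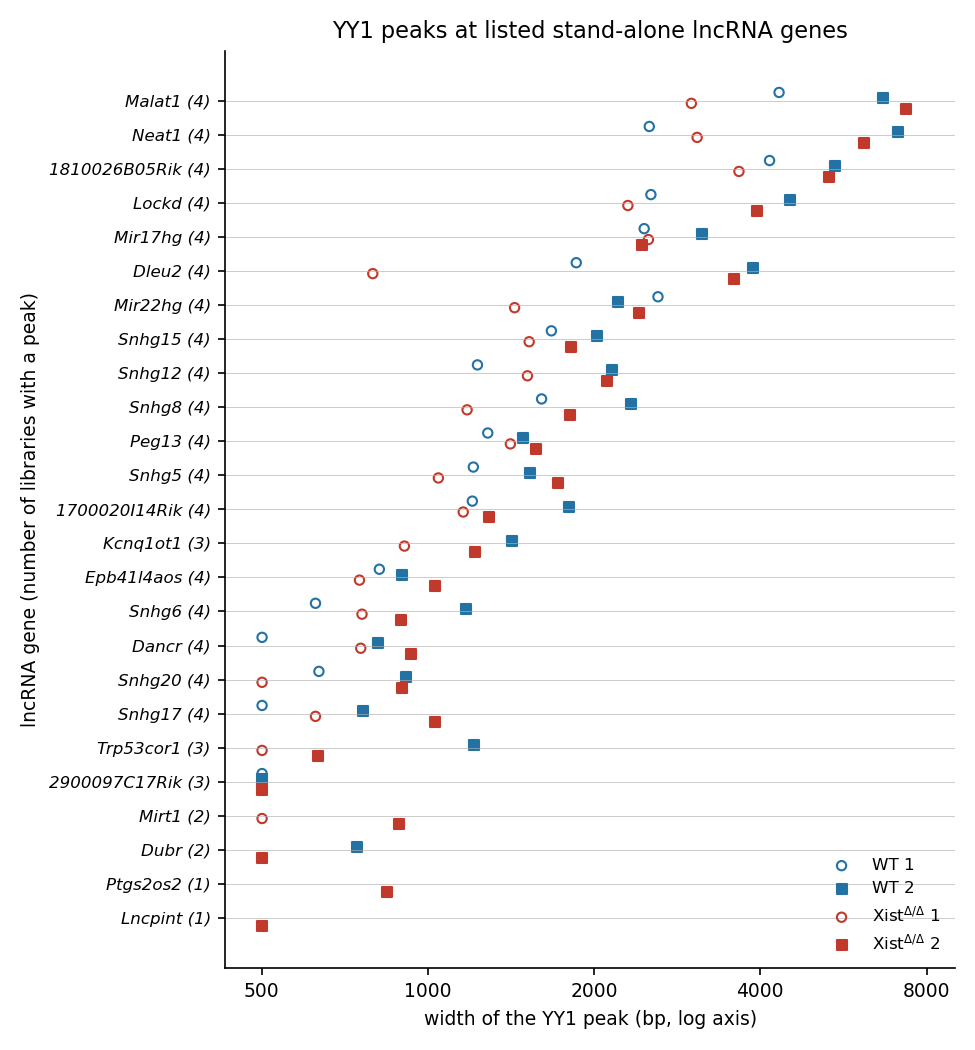
Width of the YY1 peak in bp (log axis) in each library at the 25 listed stand-alone lncRNA genes with a peak, with the number of libraries in brackets; a missing symbol means that the library had no peak. Malat1, Neat1 and 1810026B05Rik have the widest peaks, and squares (replicate 2, deeper) mostly lie to the right of circles (replicate 1) whatever the genotype.

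The deletion of Xist was compared next. Members had a mean share with a peak of 3.61% ± 1.50 (SD, n = 2 libraries) for WT compared with 4.16% ± 1.97 (SD, n = 2 libraries) for XistΔ/Δ, a difference of 0.553 percentage points (two-sided exact permutation p = 0.667, where 2 against 2 libraries cannot go below 0.333). Within replicate number 1 the difference was 0.221 points and within replicate number 2 0.884 points, while the tag totals of XistΔ/Δ and WT were 23.1 and 24.9 M in the first and 59.5 and 50.0 M in the second. Each list was also cut at its first 9553 entries, the length of the shortest one, although the headers do not explain the order of the lists. There 173 and 193 members held a peak in WT, against 175 and 185 members in XistΔ/Δ, and the difference was -0.0442 points. No difference between genotypes beyond the spread between libraries was detectable. For protein-coding genes the difference was 0.435 points and for lncRNA genes near a coding start -0.0759 points (exact permutation p = 1.00 for each).

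Peaks present in each XistΔ/Δ library but in no WT library were found at 6 members, 0.0884% against 0.115% of all autosomal gene 5′ ends. They were Gm13872 (645 and 757 bp in replicates 1 and 2), Mirt1 (501 and 886 bp), Gm49249 (501 and 753 bp), Gm12708 (501 and 628 bp), Gm40918 (501 and 626 bp) and Gm28286 (501 and 501 bp). The opposite pattern was found at 1 member, 4632428C04Rik, with 501 bp in both WT libraries, 0.0147% against 0.0468%. None of these 7 promoters was CpG-rich, and their mean width percentiles over the libraries with a peak ran from 9.51 to 36.4, all in the narrower part of their lists. Among windows with a peak in any library, the XistΔ/Δ pattern made up 1.45% of members and 0.478% of all gene 5′ ends, and the WT pattern 0.242% and 0.194%. With 6 members and 1 member, neither comparison was tested.

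Among the 149 members with a peak in all 4 libraries, XistΔ/Δ had the higher width percentile in both within-replicate comparisons at 65 (43.6%) and the lower at 17 (11.4%). Over all 8488 gene 5′ ends with a peak in all 4 libraries, 35.5% were higher and 17.4% lower. The median difference, XistΔ/Δ minus WT, was 2.20 percentile points within replicate number 1 and 2.33 within replicate number 2 for members, and 1.21 and 1.55 for all of those gene 5′ ends. The XistΔ/Δ list was the longer one in both replicate numbers, and whether list length bears on these percentiles was not tested. These values were not read as a difference between genotypes. Whether members differed from the rest was not tested.

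Some members share their signal with other features. Of the 294 members with a peak in at least 2 libraries, 42 had the start of a gene that is no member, such as a small RNA gene, within 1 kb. In RefSeq, 24 lay within 5 kb of an mRNA start, though of no protein-coding transcript in GENCODE. In GENCODE itself, 18 lay within 5 kb of a start of a protein-coding gene whose transcript there is of a noncoding type, which the rule allowed. Windows of 358 members overlapped another member's, and the 294 fell into 277 groups of windows that do not overlap. The strand of the lncRNA does not enter a ChIP-seq peak, so binding at a shared start cannot be given to either gene.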

How the data were processed

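YY1 ChIP-seq peaks of 4 libraries, 2 per genotype, were used. Per the methods of the study and the file headers, the authors digested chromatin with micrococcal nuclease, trimmed reads, aligned them to mm10 (GRCm38) with Bowtie2 2.3.5.1, removed duplicates and reads of mapping quality under 30, and called peaks per library with HOMER (peak size 500 bp, minimum distance 500 bp, 4-fold over the local region, false discovery rate 0.001, no input library). The authors' lists carry a score that equals 1 throughout and ranks nothing, so peak width was used. A tag is an aligned read as HOMER counts it. The 8 histone mark samples were not analysed here.

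Genes and starts came from GENCODE M21, sequence and soft-masking from GRCm38.p6. A window counted as bound when a peak shared at least 1 bp with it. Shares carry 95% Wilson intervals. Genotypes were compared with a two-sided exact permutation test over libraries, and gene classes with an exact sign-flip test over the 4 libraries (Python 3.11.15, scipy 1.17.1, pandas 2.3.3). The overlap code was tested on simulated windows with known answers.

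The members, lists and alternatives were chosen with earlier results of these data known. The genes named are all listed members, the 10 loci with the widest peaks in all 4 libraries, members specific to 1 genotype, the 3 nearest each side of the 5 kb limit and the 3 farthest from a coding start. The genes with printed sequences were chosen after their values were seen. The methods of the study speak of biological replicates for ChIP-seq, and neither they nor the labels say how many animals gave each library. The p-values come from exchanging genotype labels or signs over these libraries and refer to these libraries alone. The file headers carry a number shared by the replicate 1 libraries and another shared by the replicate 2 libraries, which was treated as a batch although its meaning is not stated. Replicate numbers in the headers differ from those in the sample titles, which were used here.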

Additional observations from a re-analysis of the deposited data

How the results depend on the processing

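The lower share of members kept its direction in all 19 alternatives, between -15.8 points (promoters that are not CpG-rich) and -41.1 (support level 1 or 2). These set members against protein-coding genes, except for the alternative with lncRNA genes near a coding start in their place (-35.3 points). The genotype difference of 0.553 points turned to -0.0442 with lists of equal length and ran from -0.840 to 1.95 when 1 library was left out (it was -0.508 when WT replicate 1 was dropped, -0.840 when XistΔ/Δ replicate 2 was, 1.61 when WT replicate 2 was and 1.95 when XistΔ/Δ replicate 1 was). With the replicate block, exchanging genotypes within replicate numbers, it stayed 0.553 (exact permutation p = 0.500, the smallest 2 pairs allow), so no call changed. The correlation of the pairing across the 414 members with a peak was weak (0.164), with only 2 pairs. Members are not replicates and were chosen here for holding a peak, so no shared deviation of the replicates was read from it. The 294 members with a peak in at least 2 libraries became 192 with lists of equal length, 173 of 3039 with support level 1 or 2, 149 with a peak required in all 4 libraries and 200 to 291 without 1 library. The 6 members specific to XistΔ/Δ became 1 with lists of equal length, 3 with peaks wider than 501 bp and 6 to 91 without 1 library (91 without XistΔ/Δ replicate 1, 35 without WT replicate 2). The 1 member specific to WT became 3, 0 and 1 to 32 under the same alternatives (32 without WT replicate 1, 21 without XistΔ/Δ replicate 2). With 1 library left out a pattern rests on fewer libraries by construction. Keeping members over 5 kb from every RefSeq mRNA start, from starts of other gene kinds, or in windows mostly free of soft-masked repeats, chosen after seeing the data, gave 270, 212 and 293 members with a peak in at least 2 libraries. The order behind the lists of equal length is not explained in the headers. The effect of depth on these counts cannot be told apart from that of replicate number.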
